A study of Homo sapiens with 6 samples.

Results

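Cytosolic and mitochondrial ribosomal protein genes were followed in EndoC-βH1 cells, labelled EndoCBH1, which are an established line of human beta cells made from fetal pancreatic tissue. The siMNX1 group was cells transfected with siRNA against MNX1, a homeobox transcription factor of beta cells, and the siNT group was cells transfected with a non-targeting control siRNA, with 3 libraries in each group. Genes were chosen by symbol alone, by a rule that RPL36AL did not match. Numbered RPL and RPS symbols, RPLP and RPSA were taken for the cytosolic ribosome, and numbered MRPL and MRPS symbols for the mitochondrial ribosome. This gave 161 of the 16792 deposited genes, 83 cytosolic (50 of the large and 33 of the small subunit by symbol) and 78 mitochondrial (49 MRPL and 29 MRPS). All 161 were tested, since no filter on low values was applied. The labels do not say whether replicates came from separate cultures, so the p-values cover only the scatter among these 6 libraries, and that scatter may be technical.

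A cell holds separate ribosomes in the cytosol and in the mitochondria. The cytosolic ribosome makes nearly all proteins, insulin included, and its protein mRNAs are among the most abundant of any cell. They start with a terminal oligopyrimidine tract, a C followed by a run of C and T letters, through which nutrient and growth signals acting on mTOR and LARP1 set their translation and stability together. The mitochondrial ribosome makes only the few respiratory chain subunits that mitochondrial DNA encodes; its proteins are encoded in the nucleus, made in the cytosol and imported. Oxidative phosphorylation couples glucose to insulin release in beta cells, so the mitochondrial ribosome is part of the machinery behind that response.

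Start letters of members described below are shown because the tract is the feature that cytosolic ribosomal protein mRNAs share. Each line gives 10 bases before and 20 after the first listed RefSeq transcript start (GRCh38.p14), 5′ to 3′, with the first run of 6 or more C or T letters that begins with C in capitals. They are 5 cytosolic genes described below, RPL22 with the paralogs RPS27L and RPL22L1, and the 4 mitochondrial genes of smallest p.
RPS19 (chr19:41860245-41860274, plus strand): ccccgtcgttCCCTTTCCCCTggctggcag
RPS6 (chr9:19380217-19380246, minus strand): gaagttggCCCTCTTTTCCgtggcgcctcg
RPSA (chr3:39406710-39406739, plus strand): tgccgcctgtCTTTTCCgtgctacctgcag
RPL13A (chr19:49487598-49487627, plus strand): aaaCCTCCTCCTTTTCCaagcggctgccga
RPS27 (chr1:153990752-153990781, plus strand): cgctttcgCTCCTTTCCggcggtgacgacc
RPS27L (chr15:63157458-63157487, minus strand): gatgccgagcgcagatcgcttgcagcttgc
RPL22 (chr1:6199576-6199605, minus strand): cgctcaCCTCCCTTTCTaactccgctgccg
RPL22L1 (chr3:170870176-170870205, minus strand): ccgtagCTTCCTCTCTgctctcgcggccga
MRPS34 (chr16:1773115-1773144, minus strand): ggaccgctgaggacgcggacccgccatggc
MRPS26 (chr20:3046042-3046071, plus strand): ccgcggccgcagtgaggagactcggccatg
MRPL37 (chr1:54200157-54200186, plus strand): ggcgcccggtctcattcgttcccagcaggc
MRPS25 (chr3:15065296-15065325, minus strand): gtgcgtctgcgcgggaagtggaacctggct

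Of 67 cytosolic genes matched by symbol in the RefSeq table, 58 (86.6%) had such a run in the window of at least 1 listed start. The share was 18.8% of the matched mitochondrial genes (13 of 69) and 29.7% of other matched genes of the deposited table (3378 of 11379). Over all symbols of the RefSeq table it was 27.6%. The exact letters TTTCC, which can lie inside such a run, were in the window of 30 cytosolic genes (44.8%), 6 mitochondrial genes (8.70%) and 6.28% of all symbols. Only the transcribed strand was searched, because the tract belongs to the mRNA. RPS27L, a paralog of RPS27, had no run in its window, whereas RPL22L1, a paralog of RPL22, had a run of 10 letters. A run was counted anywhere in the window, so it need not be a tract at the start of the mRNA. Relative to the listed start, the run began at position -4 in RPL22L1 and RPL22, -7 in RPL13A, and -2 in RPS6 and RPS27.

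Levels are the authors' normalized counts, whose totals ran from 18406479 to 18704645 per library after normalization, and the reads behind a value are unknown. The labels could be checked on the genes the study is about. MNX1 was at 1885, 1708 and 1751 in siMNX1 libraries, against 2039, 2033 and 1988 in siNT libraries, and although these values did not overlap, the log2 fold change of -0.18 missed the threshold of 0.05 (limma, adjusted p = 0.116). PERCC1, which the study's title describes as repressed by MNX1, averaged 842 ± 59.1 in siMNX1 and 44.3 ± 9.25 in siNT libraries (SD, n = 3 each), and SST averaged 858 ± 24.5 in siMNX1 and 220 ± 16.6 in siNT libraries. All 16 beta cell markers were present, INS at 125386 ± 5655 in siMNX1 and 110539 ± 3758 in siNT libraries, while NKX6-1 was low, at 109, 118 and 78.6 in siMNX1 and 114, 112 and 96.1 in siNT libraries. Limma called 5 of these markers higher (CHGA, PCSK2 and UCN3 among them) and 2 lower (G6PC2 among them), where it called 1.99% of all genes higher and 1.33% lower. The G6PC2 call ended with no variance trend (adjusted p = 0.0949). Of 17 markers of other cell types 6 were in the table and limma called 2 of them higher (SST and HHEX) and 0 lower; the acinar marker CPA1 averaged 585 ± 10.4 in siMNX1 and 591 ± 43 in siNT libraries. The part of these marker changes in the results below was not tested. Fewer cells of a type and less RNA per cell cannot be told apart in these bulk libraries.

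Cytosolic genes were expressed far above mitochondrial ones. The median level per kb of transcript was 7780 normalized counts for cytosolic and 647 for mitochondrial genes, against 175 for all genes with a known length. As a share of all normalized counts, cytosolic genes took 2.86%, 2.64% and 2.7% in siMNX1 replicates 1 to 3, against 2.76%, 2.83% and 2.77% in siNT replicates 1 to 3. The groups overlapped in that share. The mitochondrial genes took 0.353%, 0.346% and 0.351% in siMNX1 libraries, against 0.377%, 0.369% and 0.369% in siNT libraries, and here all siMNX1 libraries lay below all siNT libraries. No test is given for these summed levels.

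**Figure D1:**
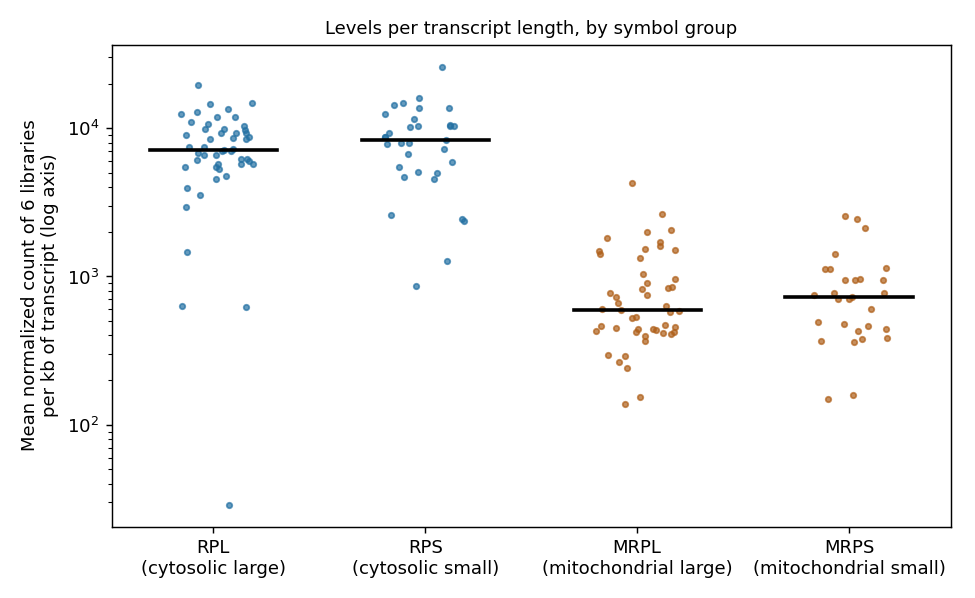
Mean normalized count of the 6 libraries per kb of transcript (log axis) for each gene (point), by symbol group, with the group median (bar). The medians were 7139 for RPL, 8291 for RPS, 593 for MRPL and 730 for MRPS genes, and RPL3L stood lowest at 28.9.

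Within each ribosome, where most proteins are present in equal number, mRNA levels per kb still spread widely. Among large cytosolic genes the highest were RPL41, which encodes the smallest ribosomal protein (19553), RPLP0 of the stalk that recruits translation factors (14697) and RPL7A (14634). RPS2, which lies near the mRNA entry channel, led the small subunit at 26049, followed by RPS27 at 15953 and RPS24 at 14802. The lowest cytosolic levels per kb belonged to paralogs, RPL3L (28.9), RPL26L1 (621), RPL22L1 (635), RPS27L (861) and RPS4Y1 (1276). Mitochondrial levels per kb ran from 138 for MRPL50 to 4247 for MRPL49 in the large set, and from 149 to 2557 among MRPS genes, the highest being MRPS26. Transcript length here was the median over a gene's basic coding transcripts in GENCODE 29, so a gene that uses mostly a longer or shorter form is placed too high or too low.

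In the cytosolic ribosome, limma called 0 of 83 genes higher and 0 lower in siMNX1 cells at an adjusted p under 0.05, where it called 1.99% of all genes higher and 1.33% lower. At an unadjusted p under 0.05 there was 1 higher and 4 lower, which is 1.20% and 4.82% of the 83, below the 9.81% and 8.56% of all genes. Log2 fold changes ran from -0.18 to 0.22 with a median of -0.02, beside a median of -0.00 for all genes. They were measured with small error, since the median SD within groups was 0.0631 on the log2 scale, against 0.133 for all genes. For 80 of the 83 genes the 95% interval lay within 1.25-fold in either direction, as it did for 39% of all genes, and for 83 it lay within 1.5-fold. RPL3L, at under 100 normalized counts, had the widest interval of the genes named here (-0.35 to 0.55).

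**Figure D2:**
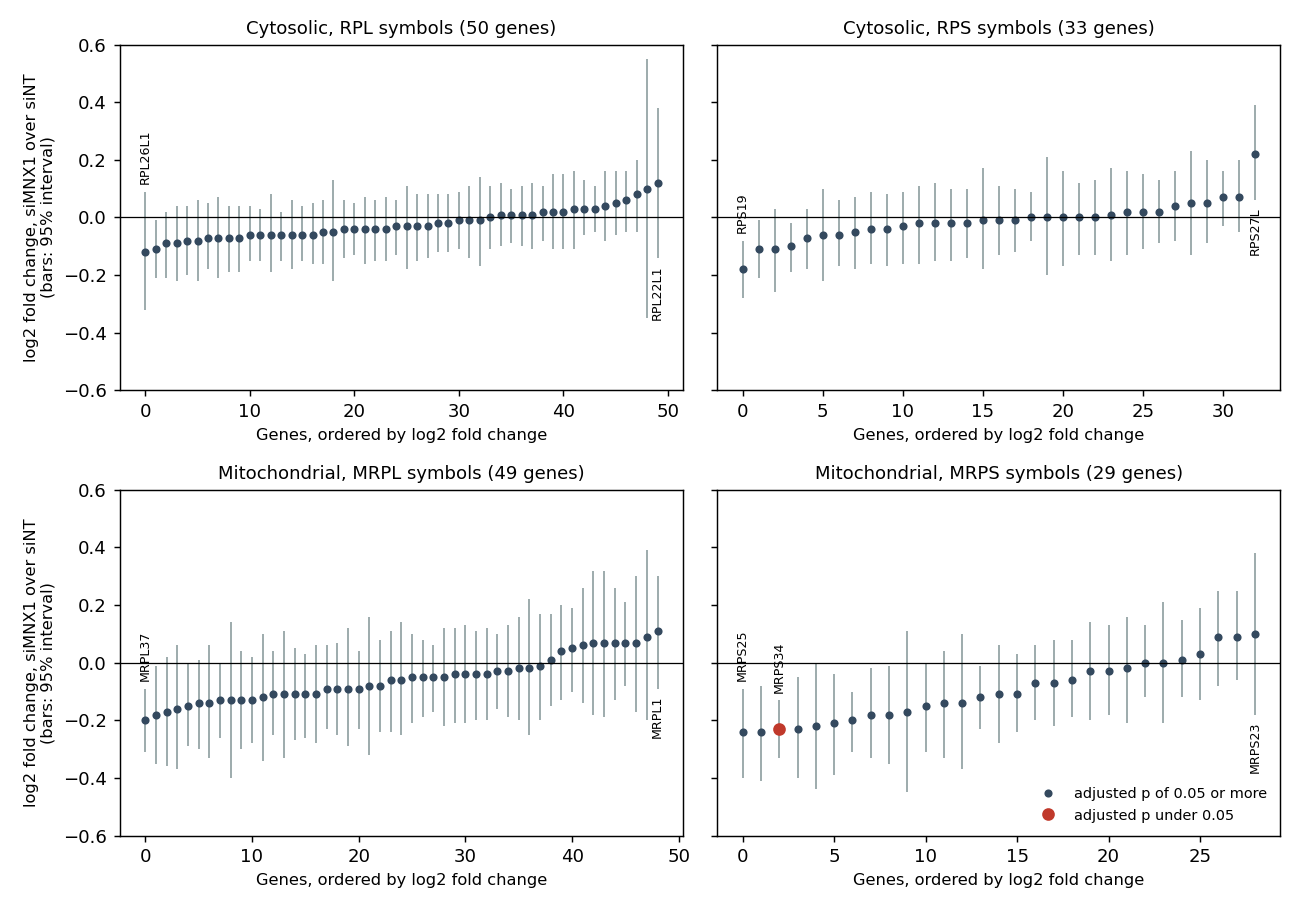
Log2 fold change of siMNX1 over siNT (points) with its 95% interval from limma (bars) for each gene, in the order of the fold change, in 4 panels by symbol group; red marks an adjusted p under 0.05. MRPS34 is the 1 red point, and 22 of 29 MRPS genes lie below 0.

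RPS19, a small subunit protein that is the gene most often mutated in Diamond-Blackfan anaemia, had the smallest p of the cytosolic genes. It was at 5799, 5701 and 5586 normalized counts in siMNX1 libraries, against 6660, 6474 and 6199 in siNT libraries, so the groups did not overlap. Its log2 fold change was -0.18 (95% interval -0.28 to -0.08), which missed the threshold (limma, adjusted p = 0.0667). RPS2 stood at 23417, 23460 and 22724 in siMNX1 libraries, against 25502, 24482 and 24832 in siNT libraries (log2 fold change -0.10, limma, adjusted p = 0.180). RPL23, which binds the p53 regulator MDM2, averaged 3609 ± 93.8 in siMNX1 and 3888 ± 73.8 in siNT libraries (SD, n = 3 each). Its log2 fold change of -0.11 missed the threshold (limma, adjusted p = 0.244).

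RPS27L had the highest log2 fold change of the 83. This paralog of RPS27 is known as a target of p53. It was at 601, 683 and 648 in siMNX1 libraries, against 539, 544 and 568 in siNT libraries, with every siMNX1 library above every siNT library. The log2 fold change was 0.22 (95% interval 0.06 to 0.39), short of the threshold (limma, adjusted p = 0.152). RPS27 itself averaged 5857 ± 156 in siMNX1 and 5598 ± 111 in siNT libraries (log2 fold change 0.07). Per kb of transcript, RPS27L stood at 5.23%, 6.23% and 5.65% of RPS27 in siMNX1 libraries, against 4.98%, 4.94% and 5.36% in siNT libraries, and replicate 1 of siMNX1 lay inside the siNT range.

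Log2 fold changes of the other paralogs lay nearer to 0. RPL22L1 averaged 335 ± 43.7 in siMNX1 and 307 ± 21.8 in siNT libraries (log2 fold change 0.12), beside 4338 ± 88.5 in siMNX1 and 4320 ± 121 in siNT libraries for RPL22. RPL26L1 averaged 414 ± 8.34 in siMNX1 and 450 ± 44.9 in siNT libraries (log2 fold change -0.12), and RPL7L1, whose protein acts in ribosome assembly, averaged 5534 ± 124 in siMNX1 and 5409 ± 95.2 in siNT libraries (0.03). RPL3L, the form of striated muscle, averaged 65.4 ± 13.0 in siMNX1 and 60.5 ± 8.02 in siNT libraries. That was far under its partner RPL3, at 16172 ± 164 in siMNX1 and 15812 ± 124 in siNT libraries. Limma called 0 of the 6 paralogs in the table in either direction. At an unadjusted p under 0.05, 1 (RPS27L) was higher and 0 lower, beside 9.81% and 8.56% of all genes.

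Some members have known roles outside the ribosome. RPL5 and RPL11, which like RPL23 hold MDM2 when ribosome assembly stalls, had log2 fold changes of 0.05 (95% interval -0.06 to 0.16) and 0.01 (-0.09 to 0.10). RPS6, the target of the S6 kinases, averaged 7779 ± 427 in siMNX1 and 7866 ± 338 in siNT libraries, with a log2 fold change of -0.02 (-0.14 to 0.10). RPSA, also known as the laminin receptor, had -0.04, and the stalk genes RPLP0, RPLP1 and RPLP2 had -0.06, -0.03 and -0.04. RPL13A, which is known to leave the ribosome to silence inflammatory mRNAs, averaged 11626 ± 572 in siMNX1 and 11174 ± 359 in siNT libraries (0.06). The 95% intervals of these 8 genes all included 0, while that of RPL23 (-0.21 to -0.01) did not.

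The cytosolic genes shared differences between single libraries. The median deviation of a gene from its own mean over 6 libraries was 0.053, -0.057 and -0.025 (log2) in siMNX1 replicates 1 to 3, against -0.019, 0.049 and 0.002 in siNT replicates 1 to 3. Replicate 1 of siMNX1 held the highest of the 6 values for 34 of the 83 genes, and replicate 2 of siMNX1 held the lowest for 36. Without replicate 2 of siMNX1 the median log2 fold change was 0.004, and without replicate 1 of siMNX1 it was -0.058, so its sign depends on single libraries. Replicate 2 also held the lowest value for 185 of 663 other protein-coding genes of at most 920 bases and at least 500 normalized counts. On the second principal component of all genes the same replicates lay at opposite ends, at -29.4 and 31.7, with the other libraries between -2.40 and 2.66. The part of this library difference in the results was not tested.

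**Figure D3:**
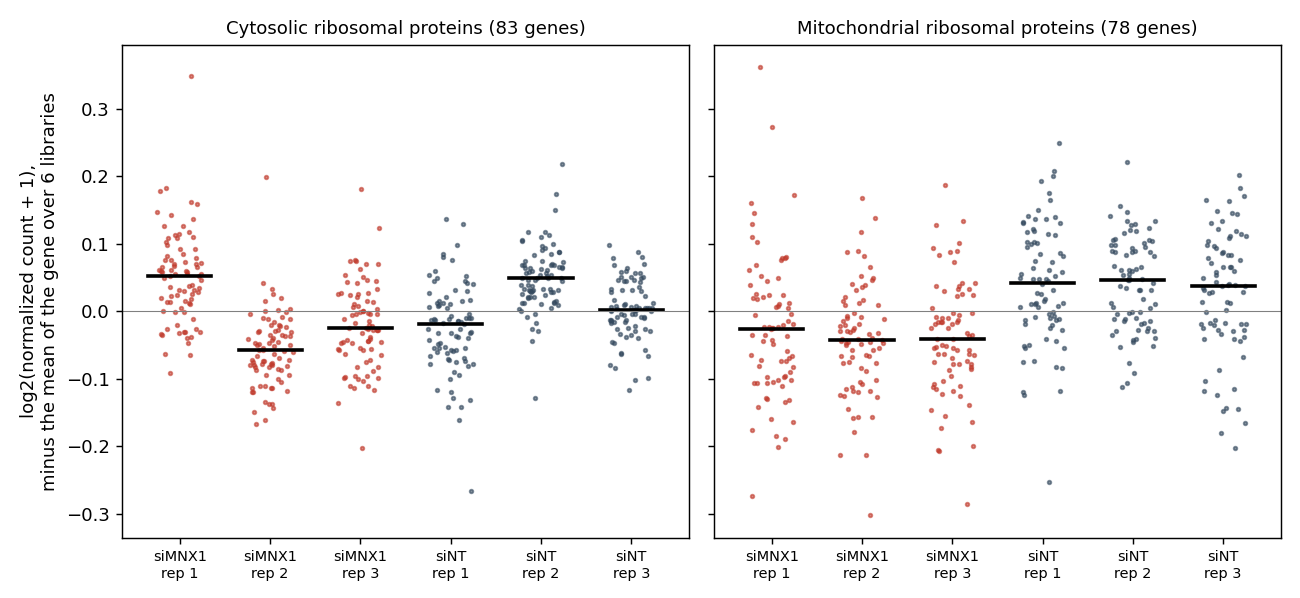
Log2(normalized count + 1) of each gene minus its mean over 6 libraries (points), by library, with the median (bar), for cytosolic (left) and mitochondrial (right) ribosomal protein genes. Cytosolic medians of the groups interleave, while the 3 siMNX1 medians of the mitochondrial genes (-0.026 to -0.043) lie below the 3 siNT medians (0.037 to 0.046).

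In the mitochondrial ribosome, limma called 1 of 78 genes lower (MRPS34) and 0 higher, beside the 1.33% and 1.99% of all genes given above, so the share of calls was near that background. The median log2 fold change was -0.07, and 60 of 78 genes (76.9%) lay below 0, as did 50.1% of all genes. The 663 other short protein-coding genes described above also had lower medians in each siMNX1 library (0.009, -0.041 and -0.031, as deviations from the gene's mean) than in each siNT library (0.013, 0.039 and 0.017). The nearest of these, 0.009 and 0.013, almost met. In the share of all normalized counts that set overlapped between groups, with 8.75% in siMNX1 replicate 3 and 8.66% in siNT replicate 1. The limit of 920 bases for that set was taken from the cytosolic genes, while the median transcript length of the mitochondrial genes was 1081. No test of a difference between the mitochondrial genes and that set was made. At an unadjusted p under 0.05 there were 12 lower (15.4%, beside 8.56% of all genes) and 0 higher (beside 9.81%). The groups did not overlap for 22 genes with siMNX1 lower (28.2%, beside 12.1% of all genes) and for 0 with siMNX1 higher (beside 12%). For the cytosolic genes the same counts were 8 lower (9.64%) and 2 higher (2.41%). The differences were small, as 57 of 78 intervals lay within 1.25-fold and 78 within 1.5-fold. Leaving out any single library kept the mitochondrial median between -0.078 and -0.068.

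MRPS34, a protein found in mitochondrial but not bacterial small subunits and mutated in some cases of Leigh syndrome, fell to 2286, 2329 and 2334 normalized counts in siMNX1 libraries, against 2758, 2668 and 2723 in siNT libraries. The groups did not overlap, and each varied little. The log2 fold change was -0.23 (SE 0.0464, 95% interval -0.33 to -0.13, limma, adjusted p = 0.0297), a level in siMNX1 of 0.853 times that in siNT libraries. The call ended when any of the 6 libraries was left out (adjusted p from 0.0501 to 0.122) with no variance trend (0.126) and with a replicate block (0.106), while the log2 fold change stayed between -0.24 and -0.22. MRPS34 lies on chromosome 16 (1771890 to 1773155, minus strand, GRCh38) and shares no exon bases with another gene in GENCODE 29. That is 338 kb from PERCC1, a distance looked up after the values were seen. Of 99 tested genes within 1000 kb of PERCC1, 5 were higher and 1 was lower by limma, beside 1.99% and 1.33% of all genes, so the 1 lower gene, MRPS34, was near that background. RPS2, at 529 kb, had the log2 fold change of -0.10 given above, and RPL3L, at 511 kb, had 0.10 (limma, adjusted p = 0.836).

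**Figure D4:**
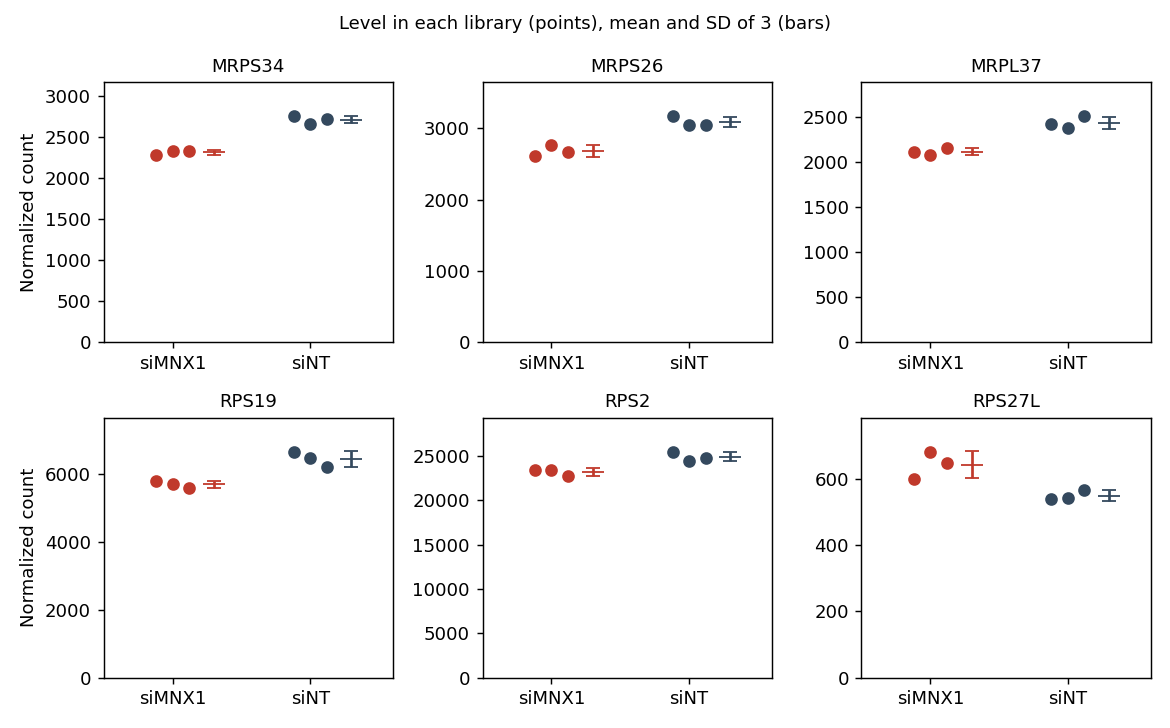
Normalized count in each library (points) with the mean and SD of 3 (bars) for MRPS34, MRPS26, MRPL37, RPS19, RPS2 and RPS27L, siMNX1 left and siNT right, from 0 on each axis. The 3 siMNX1 libraries lie below the 3 siNT libraries in the first 5 genes and above them for RPS27L.

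MRPS26, next in the small set, was at 2605, 2766 and 2661 in siMNX1 libraries, against 3169, 3042 and 3045 in siNT libraries, without overlap. Its log2 fold change was -0.20 (95% interval -0.31 to -0.10), just outside the threshold (limma, adjusted p = 0.0542). MRPS25, mutated in a mitochondrial encephalomyopathy, was at 837, 862 and 957 in siMNX1 libraries, against 1033, 1072 and 1038 in siNT libraries (log2 fold change -0.24, limma, adjusted p = 0.0929). MRPS5, homologous to a bacterial protein of translation accuracy, averaged 579 ± 31.0 in siMNX1 and 685 ± 26.2 in siNT libraries (log2 fold change -0.24, limma, adjusted p = 0.113). MRPS12, the homolog of the decoding protein in which bacterial streptomycin resistance arises, averaged 521 ± 22.6 in siMNX1 and 605 ± 37.9 in siNT libraries (log2 fold change -0.21, limma, adjusted p = 0.183). MRPS5 and MRPS12 were named after their values were seen. MRPS25 shares 1197 exon bases with NR2C2 on the opposite strand and MRPS12 shares 349 with SARS2, and reads of such pairs cannot be told apart here, because whether counting used strand is not stated. MRPS5 shares 550 exon bases with ZNF514 on the same strand.

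As a set by symbol, 9 of 29 MRPS genes (31.0%) had an unadjusted p under 0.05 with siMNX1 lower, against 3 of 49 MRPL genes (6.12%) and 8.56% of all genes. The groups did not overlap, with siMNX1 lower, for 12 MRPS genes (41.4%) and 10 MRPL genes (20.4%), beside 12.1% of all genes, and median log2 fold changes were -0.11 and -0.06. No test of the difference between the subunits was made. Symbols do not match the structure in every case, as the proteins of MRPS18A and MRPS30 sit in the large subunit and that of MRPS36 belongs to the oxoglutarate dehydrogenase complex. Without these 3 genes, 8 of 26 (30.8%) had an unadjusted p under 0.05 with siMNX1 lower, and the median stayed at -0.11. The 3 MRPS18 paralogs, which occupy different sites, had log2 fold changes of -0.23 for MRPS18A, -0.07 for MRPS18B and -0.22 for MRPS18C, and limma called 0 of them. MRPS18A shares 604 exon bases with RSPH9 and MRPS18C shares 1956 with ABRAXAS1, each on the opposite strand. The highest log2 fold changes toward siMNX1 among MRPS genes were 0.10 for MRPS23 and 0.09 for MRPS10 and MRPS14, none of them called. Several small subunit genes had values near equality, with MRPS27 at 1293 ± 37.0 in siMNX1 and 1292 ± 33.1 in siNT libraries and MRPS22 at 855, 847 and 865 in siMNX1 against 851, 831 and 860 in siNT libraries, both named after their values were seen.

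In the large mitochondrial set, MRPL37 had the smallest p. It was at 2115, 2081 and 2158 in siMNX1 libraries, against 2428, 2380 and 2513 in siNT libraries, without overlap, with a log2 fold change of -0.20 (95% interval -0.31 to -0.09) that missed the threshold (limma, adjusted p = 0.0571). On the opposite strand, MRPL37 shares 140 exon bases with CYB5RL and MRPL51 shares 486 with NCAPD2. MRPL4 shares 560 with AC011511.2 and 309 with AC011511.3, also on the opposite strand. MRPL12 shares 701 of its 1028 exon bases with AC139530.2 on the same strand. In all, 24 of the 49 MRPL genes share exon bases with another gene. MRPL4, which lines the exit tunnel, averaged 708 ± 23.3 in siMNX1 and 802 ± 59.6 in siNT libraries (log2 fold change -0.18), and MRPL51 averaged 985 ± 24.8 in siMNX1 and 1091 ± 55.5 in siNT libraries (-0.15). Of the stalk pair, MRPL12 stood at 813 ± 22.8 in siMNX1 and 880 ± 31.6 in siNT libraries (log2 fold change -0.11, 95% interval -0.26 to 0.03, limma, adjusted p = 0.383). Its anchor MRPL10 stood at 637 ± 31.2 in siMNX1 and 631 ± 21.2 in siNT libraries (0.01). The highest log2 fold changes toward siMNX1 were small and not called, 0.11 for MRPL1, which forms the other stalk of the large subunit, and 0.09 for MRPL2 (named after its value was seen), while MRPL47 and MRPL27 each had 0.07. MRPL28 and MRPL49, the most abundant per kb, had -0.03 and -0.11, and MRPL49 shares 282 exon bases with FAU and 356 with SYVN1 on the opposite strand.

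Genes that work with the cytosolic ribosome were read from lists chosen with earlier results known. Of 4 ribosome proteins outside the symbol rule, limma called 0, with a median of -0.10. All 4 lay below 0, and 2 had an unadjusted p under 0.05 with siMNX1 lower, beside 8.56% of all genes. For 3 of them the groups did not overlap, with siMNX1 lower, beside 12.1% of all genes. FAU, which encodes a small subunit protein fused to a ubiquitin-like domain and was named after its values were seen, averaged 2449 ± 79.8 in siMNX1 and 2797 ± 75.8 in siNT libraries (log2 fold change -0.19, limma, adjusted p = 0.0747). RPL36AL, also named after its values were seen, averaged 1762 ± 36.5 in siMNX1 and 1926 ± 59.5 in siNT libraries (log2 fold change -0.13, limma, adjusted p = 0.223). RACK1, a scaffold protein on the small subunit, had -0.03. Of 58 genes of cytosolic ribosome assembly, 3 were lower and 0 higher, beside 1.33% and 1.99% of all genes, and the median was -0.09. Of these 58 genes, 45 lay below 0, as did 50.1% of all genes. The groups did not overlap for 21 with siMNX1 lower and for 2 with siMNX1 higher, beside 12.1% and 12% of all genes. At an unadjusted p under 0.05, 12 were lower and 1 higher, beside 8.56% and 9.81% of all genes. GNL3, the nucleolar GTPase nucleostemin, fell to 1178, 1239 and 1270 in siMNX1 libraries, against 1529, 1493 and 1503 in siNT libraries (log2 fold change -0.30, limma, adjusted p = 0.0225). IMP4 and RRP9, both of the U3 snoRNP that cuts the ribosomal RNA precursor, fell by 0.28 (limma, adjusted p = 0.0398) and by 0.37 (limma, adjusted p = 0.0420) on the log2 scale. The GNL3 call ended without siNT replicate 1 (adjusted p = 0.0797), 2 (0.0806) or 3 (0.102) or siMNX1 replicate 1 (0.0784). The IMP4 and RRP9 calls ended with any 1 of the 6 libraries left out (adjusted p from 0.0768 to 0.141 for IMP4 and from 0.0561 to 0.163 for RRP9). With no variance trend all 3 calls ended as well, at an adjusted p of 0.0899 for GNL3, 0.099 for IMP4 and 0.0866 for RRP9, and they also ended with a replicate block (0.0806, 0.12 and 0.0937).

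The genes that make ribosomal RNA and those that control translation were mostly without calls. Of 12 RNA polymerase I and rDNA transcription genes in the table, limma called 0 in either direction, with a median of -0.04. At an unadjusted p under 0.05 there were 0, beside 9.81% higher and 8.56% lower of all genes. UBTF, which binds the rDNA, had -0.03 and TAF1C, of its promoter complex, had -0.02. Of 14 translation factor and related genes that share the terminal oligopyrimidine tract, limma called 0, with a median of -0.02. At an unadjusted p under 0.05, 1 was higher and 0 lower, beside 9.81% and 8.56% of all genes. EEF1A1, the elongation factor that brings tRNA to the ribosome, averaged 47019 ± 1663 in siMNX1 and 47601 ± 715 in siNT libraries (log2 fold change -0.02). Of 17 growth control genes around mTOR and LARP1, 1 was higher and 0 lower, beside 1.99% and 1.33% of all genes (2 and 4 unadjusted, beside 9.81% and 8.56%). It was SESN3, a sestrin that holds back mTORC1, which rose to 1633, 1869 and 1687 in siMNX1 libraries, against 1298, 1346 and 1286 in siNT libraries (log2 fold change 0.40, limma, adjusted p = 0.0112). The SESN3 call ended without siNT replicate 3 (adjusted p = 0.0635) and with no variance trend (0.0759).

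Around the mitochondrial ribosome the lists gave no calls. Of 25 assembly genes, limma called 0 (0 higher and 4 lower unadjusted, beside 9.81% and 8.56% of all genes), and the median was -0.06. Of these 25 genes, 19 lay below 0, as did 50.1% of all genes. The groups did not overlap for 5 with siMNX1 lower and for 0 with siMNX1 higher, beside 12.1% and 12% of all genes. DHX30, a helicase of assembly, averaged 2701 ± 79.2 in siMNX1 and 2911 ± 106 in siNT libraries (-0.11), and NGRN had 0.01. Of 13 translation factors, limma called 0 (1 higher and 2 lower unadjusted, beside 9.81% and 8.56% of all genes). The groups did not overlap for 4 of them with siMNX1 lower and for 1 with siMNX1 higher, beside the same 12.1% and 12%. TUFM, the mitochondrial elongation factor, averaged 5806 ± 83.6 in siMNX1 and 6074 ± 97.1 in siNT libraries (-0.06). LRPPRC, which stabilises mitochondrial mRNAs, had 0.03. The factor higher at an unadjusted p under 0.05 was GFM2, at 0.28 (limma, adjusted p = 0.0962). The lower ones were SLIRP at -0.20 (limma, adjusted p = 0.139) and MTFMT at -0.37 (limma, adjusted p = 0.209). GFM2, SLIRP and MTFMT were named after their values were seen. Of 6 ribosome proteins or partners with other names, limma called 0, with PTCD3 at -0.05 and the membrane insertase OXA1L at -0.07. All 6 lay below 0, and the groups did not overlap for 1 with siMNX1 lower, beside 12.1% of all genes. The 13 mRNAs that the mitochondrial ribosome translates gave 0 calls and a median of -0.03 (0 higher and 1 lower unadjusted, beside 9.81% and 8.56%). The lower mRNA was MT-CO3, named after its values were seen. It averaged 74222 ± 7304 in siMNX1 and 87097 ± 10496 in siNT libraries (log2 fold change -0.23, limma, adjusted p = 0.212). MT-CO1 was at 251713, 255373 and 300421 in siMNX1 libraries, against 253160, 315676 and 280090 in siNT libraries. Those values overlapped, with a log2 fold change of -0.07, and MT-ND4 had -0.01.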

How the data were processed

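RNA was measured in 6 libraries, grouped by their titles. Per the labels' protocols, libraries were made from total RNA with the Ovation Solo kit and depleted of ribosomal RNA with AnyDeplete, while the molecule label says polyA RNA. The authors deposited normalized counts in 1 table, which were treated as a signal because they carry decimals. Per the submitters' processing notes GRCh38 was used with DESeq2 1.26.0, RSEM 1.3.1, STAR 2.7.6a, DESeq and R 3.6.3, whose roles are not stated. No source used here gives the annotation, the gene filter or whether counting used strand. Counting can split reads between a gene and its pseudogenes, and GENCODE 29 names 1144 pseudogenes for 77 of the 83 cytosolic genes, so their levels are uncertain. Whole reads could not be recovered from the lowest values (25.6% to 47.6% fell within 0.02 of a whole read at the best step), so depth is unknown and no count model was run. No value above 0 was identical between any 2 libraries.

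Values were analysed as log2(value + 1) with limma 3.58.1 (R 4.3.3), a variance trend and Benjamini-Hochberg adjustment over all 16792 genes, with a threshold of 0.05. Fold changes on that scale understate changes of low genes. Intervals are 95% and for 1 gene at a time. The procedure was tested on simulated data. Python 3.11.15, numpy 2.4.6, pandas 2.3.3 and matplotlib 3.10.9 were also used. Transcript lengths and GC came from GENCODE 29. Members and gene lists were chosen with earlier results of these data known. Named were, per subunit, all genes past the threshold, the 3 smallest p in each direction, the 3 highest and 2 lowest per kb, fixed paralogs, stalk and disease genes, and up to 4 called (otherwise the 2 most abundant) genes of each other list; some of these are not reported here. Alternatives were other pseudocounts, a minimum mean of 50, other scalings, other variance models, a replicate block, a length and GC correction, and each library left out.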

Additional observations from a re-analysis of the deposited data

How the results depend on the processing

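No cytosolic gene was called under any of the 16 alternatives run. The count of 1 mitochondrial gene called lower became 3 with a minimum mean of 50 (MRPL37 and MRPS26 added), 2 with equal totals of genes that are neither members nor mitochondrially encoded (MRPS26 added) and 2 with the length and GC correction (MRPL37 added). It was 0 with no variance trend and 0 with each library left out (range 0 to 0). MRPS34 had an adjusted p of 0.0235 to 0.126 over all settings. The mitochondrial median of -0.074 became -0.083 with equal totals of other genes and -0.086 with the length and GC correction. In these 2 settings the median of all genes moved down as well, from 0 to -0.01 and to -0.021. Same-numbered libraries had deviations correlated at -0.038 to -0.009. With 3 libraries per group these values cannot settle whether equal numbers mark a shared culture, which the labels do not say. With a replicate block, all genes called higher and lower numbered 162 and 75, mitochondrial genes called lower 0, and GNL3, IMP4 and RRP9 were not called. All genes called higher and lower numbered 335 and 223, 131 and 60 with no variance trend, 326 and 331 with the length and GC correction, and 133 to 257 and 64 to 179 with a library left out. The cause of these shifts was not tested. Of genes named by the rule, 47 single results changed sign, none of them called. They included 2 each for MRPS23 and RPL3L, which had log2 fold changes of 0.10 in the main fit.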
